A study of Homo sapiens with 15 samples.

Results

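The replication-type and polyadenylated histone genes were examined here in BEAS-2B cells, an immortalized human bronchial epithelial line, after exposure to PM2.5. Genes were taken by symbol, as H1-, H2AC, H2BC, H3C or H4C followed by a number, without pseudogenes and with at least 10 counts summed over 15 RNA-Seq libraries. Of 58219 genes in the table, 50 met this rule, and 49 of these were histone genes: 7 linker histones of the H1 family, 10 H2A, 16 H2B, 7 H3 and 9 H4 genes. The other was H1-10-AS1, an RNA antisense to H1-10 that meets the letters of the rule and is given apart. Of the 49, 39 lie on chromosome 6 and 7 on chromosome 1, and H1-10 lies on chromosome 3 and H4C16 on chromosome 12. The total counts that set the rule were 10 for H4C13, 11 for H1-1 and 12 for H2BC3, just inside it, and 9 each for H4C1, H2AC4 and H1-7, just outside it. H2BC21 was named in the rule. Members were thus selected on their total counts, which are a sum over all conditions, and H2BC21 on its 7-day values.

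Cells were grown on collagen-coated plates in serum-free bronchial medium, and PM2.5 was an aqueous extract of filters from Beijing. There were 5 conditions of 3 libraries: 24 h in medium alone (control), or with PM2.5 at 1 or 30 µg/cm2, and 7 days in medium alone, or with PM2.5 added daily at 1 µg/cm2. In the 7-day protocol cells were plated at a lower density and washed every day, and the sample labels count 7 daily exposures where the methods count 6. Each protocol was run in 3 independent experiments. Libraries numbered 1, 2 and 3 were taken to come from these experiments in that order, and values below are listed likewise. RNA was selected for poly(A) tails, and reads were single and 50 bases long.

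Most histone mRNAs are made in S phase, when new DNA has to be packed. They do not end in a poly(A) tail but in a short stem-loop, which is bound by SLBP, the stem-loop binding protein, and cut with the help of the U7 snRNP. Some of these genes also give transcripts that run past the stem-loop to a poly(A) signal, described mainly in cells that have left the cycle, while H1-10 is a replication-independent linker histone with an ordinary poly(A) tail. A poly(A)-selected library therefore sees a small and selected fraction of histone mRNA. Values below are no measure of the mRNAs that end at the stem-loop. Some of these mRNAs can come through selection, and their share in the counts was not tested.

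The stem-loop was looked for on GRCh38 in the 120 bases after each stop codon, as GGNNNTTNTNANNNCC with a paired stem of 6 bases that could hold G-T pairs, on the coding strand. It was present in 47 of the 49 genes, 24 to 58 bases after the stop codon, and H1-10 was without it. The 47 genes held 9 versions of the 16-base core, of which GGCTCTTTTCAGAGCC was shared by 26 genes, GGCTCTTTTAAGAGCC by 8 and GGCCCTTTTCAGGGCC by 6. All 9 H4 genes had a stem that opens with GGCCC. The stem-loops of the genes that the results below turn on are shown with 5 flanking bases on each side, 5′ to 3′, and the core in capitals.
H1-2: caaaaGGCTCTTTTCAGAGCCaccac
H2AC6: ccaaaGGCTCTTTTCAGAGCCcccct
H2AC11: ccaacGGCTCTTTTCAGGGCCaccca
H2AC25: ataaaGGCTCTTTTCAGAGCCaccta
H2BC9: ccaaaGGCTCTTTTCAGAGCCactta
H2BC11: ctaacGGCTCTTTTAAGAGCCaccca
H2BC21: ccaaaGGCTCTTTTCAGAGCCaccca
H3C10: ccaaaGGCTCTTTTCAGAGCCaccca
H4C9: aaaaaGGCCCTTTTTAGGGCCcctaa
The printed stem-loops of H2BC21 (chr1:149886183-149886208, minus strand) and H3C10 (chr6:27810511-27810536, plus strand) were the same 26 letters, although the genes encode an H2B and an H3 histone. The core printed for H2AC11 was found in no other of the 47 genes.

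The deposited gene models differed in how much sequence past the stem-loop they held, which sets what could be counted. Measured along the genome, introns included, the model ran more than 200 bases past the stem-loop in 22 genes and ended no more than 60 bases past it, or before it, in 25. The last 40 bases of the model held a poly(A) signal, AATAAA or ATTAAA, in 16 of the 49 genes. Of the 25 genes with enough counts to test, 18 had a model that ran more than 200 bases past the stem-loop and 15 had a poly(A) signal. Of the 24 genes with too few counts, 4 had such a model and 1 a poly(A) signal. H1-2, H2BC12 and H2AC20 were exceptions, with 2154, 579 and 418 counts on models that end before the stem-loop.

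**Figure D1:**
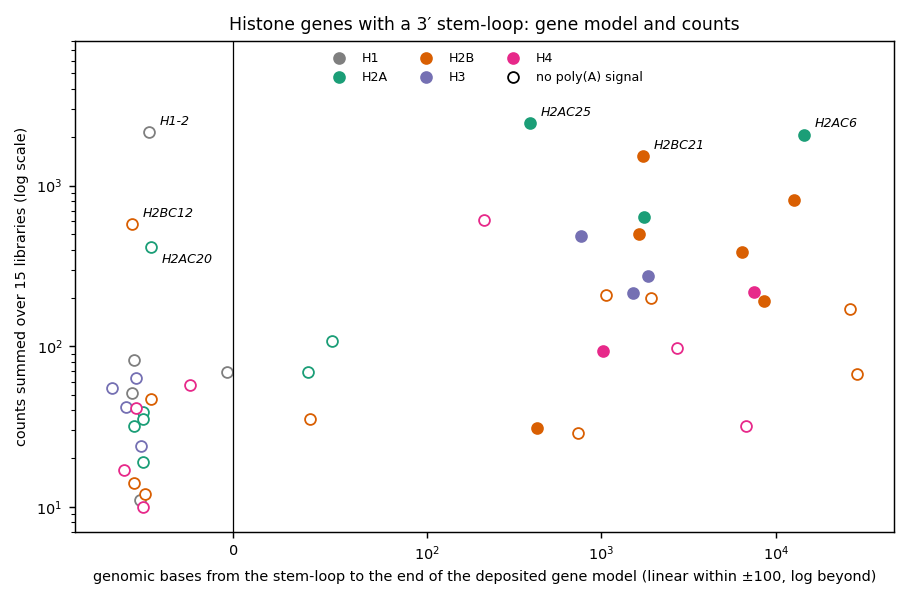
Counts of each histone gene summed over 15 libraries (log scale) against the genomic bases from its stem-loop to the end of its deposited gene model, for the 47 genes with a stem-loop, where values below 0 are models that end before it. Colours mark the family and open points have no poly(A) signal in the last 40 bases of the model; most points at the left lie under 100 counts, with H1-2, H2BC12 and H2AC20 above them.

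The promoters of 4 genes are shown for the region 200 bases before the RefSeq start, because these genes changed in different comparisons. Capitals mark the TATA letters TATAAA, the CCAAT box and the octamer ATTTGCAT known from H2B promoters, each on either strand, so that they can also stand in reverse complement. TATAAA overlaps its own reverse complement in H2AC11.
H2BC21, GRCh38 chr1:149886683-149886882, minus strand: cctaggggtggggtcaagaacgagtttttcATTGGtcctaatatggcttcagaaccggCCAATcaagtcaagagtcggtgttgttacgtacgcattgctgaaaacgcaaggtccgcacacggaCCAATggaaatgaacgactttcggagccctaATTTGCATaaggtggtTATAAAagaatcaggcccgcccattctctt
H2AC25, GRCh38 chr1:228457874-228458073, minus strand: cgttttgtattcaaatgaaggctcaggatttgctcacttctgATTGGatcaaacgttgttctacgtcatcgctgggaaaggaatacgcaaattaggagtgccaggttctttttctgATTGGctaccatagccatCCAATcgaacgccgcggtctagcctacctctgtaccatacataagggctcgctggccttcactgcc
H2AC11, GRCh38 chr6:27132843-27133042, plus strand: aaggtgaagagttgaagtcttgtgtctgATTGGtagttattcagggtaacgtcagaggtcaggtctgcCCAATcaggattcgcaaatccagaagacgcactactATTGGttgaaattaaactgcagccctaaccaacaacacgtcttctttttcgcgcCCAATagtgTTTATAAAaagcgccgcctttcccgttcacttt
H2BC9, GRCh38 chr6:26251414-26251613, plus strand: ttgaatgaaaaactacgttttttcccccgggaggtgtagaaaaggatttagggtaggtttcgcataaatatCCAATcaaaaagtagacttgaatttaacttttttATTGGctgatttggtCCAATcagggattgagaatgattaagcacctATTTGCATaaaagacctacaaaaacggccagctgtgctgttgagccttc
Promoters of 44 of the 49 genes were matched in RefSeq (GRCh38.p14), as windows of 300 bases around the start. Windows of some neighbouring H2A and H2B genes overlap, such as those of H2AC11 and H2BC11. The same motif can then be counted for both genes. ATTTGCAT, on either strand, was in 7 of 9 H2A and 12 of 16 H2B promoters and in none of the 6 H1, 5 H3 and 8 H4 promoters, against 1.77% of all 35116 promoters. CCAAT was in all 9 H2A, 16 H2B and 5 H3 promoters, in 5 of 6 H1 and in 3 of 8 H4 promoters, against 34.6% of all. TATAAA was in 28 of the 44, against 11.5% of all. The octamer counted for H2AC11 lies outside its printed window. The window printed for H2AC25 lies between the models of H2AC25 and H2BC26, which are transcribed away from each other.

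The libraries held 21460981 to 34724765 counted reads each, and 3 counts, taken as the floor for 1 library, corresponded to 0.0866 to 0.149 CPM (counts scaled to a common TMM-adjusted library size). At this depth 25 of the 49 histone genes passed edgeR's filter on low counts and entered the test, and 24, with 10 to 69 counts in all and at most 16 in a library, did not. Experiment 2 of the 24-h protocol stood apart from the other two. The 47 histone genes with a stem-loop summed to 25.4, 47.1 and 30.6 CPM in the 24-h controls, 27.9, 57.6 and 31.1 CPM at 1 µg/cm2 and 14, 23.6 and 14 CPM at 30 µg/cm2. The library of experiment 2 was the highest of its condition in each case. Counts of called genes are therefore given also with the experiment as a block (a term for the experiment within each protocol) and without the 3 libraries of 24-h experiment 2. The summed level of 10 keratin and junction genes of epithelium was 3601 to 5009.6 CPM in the 24-h control and 1 µg/cm2 libraries and 1923 to 3034 CPM at 30 µg/cm2. All 6 fibroblast markers were also detected, with summed levels of 58.9 to 128 CPM over the 15 libraries. CD14 was the one leukocyte marker with enough counts to test, the pan-leukocyte gene PTPRC had 2 counts in all, and 3 endothelial markers summed to at most 0.345 CPM in a library.

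Levels between genes were compared as CPM per kilobase of exon, averaged over 15 libraries. H1-10 was at 101 CPM per kilobase, far above the 47 genes with a stem-loop, of which H1-2 was at 7.98, H2AC25 at 6.25 and H2BC12 at 3.54 CPM per kilobase. Sums of levels below are over the genes with a stem-loop. H2BC12 shared 74.1% of its 50-base windows with another histone gene or pseudogene of the table, so its reads could be split or lost in counting, and H2BC21 shared 8.11%. In bulk RNA, fewer cells that transcribe a gene and less RNA per cell cannot be told apart.

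The first question was how histone genes responded to a single high exposure. After 24 h at 30 µg/cm2, H2AC11 and H2BC9 fell 2.88-fold and 2.56-fold relative to control, and no histone gene rose. These were 2 of 25 tested genes past the thresholds, which were a Benjamini-Hochberg adjusted p-value under 0.05 over all 17599 genes tested with edgeR's quasi-likelihood test together with a log2 difference of 0.6 or more either way. Over all genes, 4.24% passed in the downward direction and 3.82% in the upward direction. At an unadjusted p-value under 0.05, 11 histone genes were lower and 0 higher, against 11.6% and 12.1% of all genes. DESeq2 called 4 lower and 0 higher, against 5.79% and 4.81%. With the experiment as a block, 6 genes fell (H1-2, H2AC6, H2AC11, H2AC25, H2BC9 and H3C10), against 7.87% of all genes. Without 24-h experiment 2, 10 genes fell, these 6 with H2AC20, H2BC26, H3C8 and H4C16, against 9.95% of all genes. The count was 1 without control library 2 or without library 1 or 3 at 30 µg/cm2, and 5 without library 2 at 30 µg/cm2. H2AC11 and H2BC9 were no longer called when the fit held only the 6 libraries compared (adjusted p = 0.0638 and 0.127 by edgeR's quasi-likelihood test).

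The H2A genes, which encode a core histone that pairs with H2B, included the larger of the 2 called drops. H2AC11 was measured at 1.75, 2.31 and 1.59 CPM in the 24-h controls, 2.24, 2.33 and 2.42 CPM at 1 µg/cm2, and 0.526, 0.798 and 0.623 CPM at 30 µg/cm2. In the 7-day protocol it stood at 1.86, 1.57 and 1.29 CPM in controls and 1.00, 1.44 and 0.873 CPM after daily exposure. All 3 libraries at 30 µg/cm2 lay below the other 12. The log2 fold change for 30 µg/cm2 against control was -1.52 (SE 0.274, edgeR quasi-likelihood, Benjamini-Hochberg adjusted p = 0.00299), and it stayed between -1.71 and -1.36 when each library was left out in turn, with the gene called every time.

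H2AC6 was at 3.55, 7.53 and 4.57 CPM in the 24-h controls, 4.15, 9.67 and 4.64 CPM at 1 µg/cm2 and 1.97, 2.84 and 1.63 CPM at 30 µg/cm2. The treated libraries lay below all controls, and the log2 fold change of -1.26 (SE 0.399) missed the threshold without the block (adjusted p = 0.0625) and passed it with the block (-1.24, SE 0.191, adjusted p = 0.000406, edgeR quasi-likelihood). In the 7-day protocol H2AC6 was at 5.05, 6.94 and 7.59 CPM in controls and 3.24, 4.01 and 6.89 CPM after daily PM2.5, and the 2 groups overlapped. H2AC25 was at 2.62, 5.18 and 2.73 CPM in the 24-h controls, 3.57, 6.25 and 4.11 CPM at 1 µg/cm2 and 1.41, 2.95 and 1.53 CPM at 30 µg/cm2. The groups overlapped because experiment 2 was high in each, whereas the ratio to the control of the same experiment was 0.540, 0.569 and 0.562. With the block this came to -0.83 on the log2 scale (SE 0.175, adjusted p = 0.00337), against -0.82 (SE 0.335, adjusted p = 0.152) without it, by edgeR's quasi-likelihood test.

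Among the H2B genes, H2BC9 was at 1.72, 2.54 and 1.45 CPM in the 24-h controls, 1.22, 2.97 and 1.76 CPM at 1 µg/cm2 and 0.625, 1.04 and 0.527 CPM at 30 µg/cm2. No library at 30 µg/cm2 reached the controls. Its log2 fold change was -1.35 (SE 0.388, edgeR quasi-likelihood, adjusted p = 0.0401), and the call was lost in 4 of 6 fits that left out 1 library, with values from -1.70 to -1.10. H3C10, an H3 gene, was at 1.20, 3.11 and 1.17 CPM in the 24-h controls, 1.67, 3.72 and 1.40 CPM at 1 µg/cm2 and 0.263, 1.04 and 0.383 CPM at 30 µg/cm2. The groups did not overlap, and the ratio to the control of the same experiment was 0.218, 0.335 and 0.328. Without the block this was -1.66 on the log2 scale (SE 0.537, adjusted p = 0.0676), and with it -1.73 (SE 0.268, adjusted p = 0.000433).

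Among the linker histones, H1-10 was at 111, 197 and 109 CPM in the 24-h controls, 112, 306 and 103 CPM at 1 µg/cm2 and 79.7, 159 and 86.3 CPM at 30 µg/cm2, with groups that overlapped and a log2 fold change of -0.36 (SE 0.395) for 30 µg/cm2 against control. H1-2, a linker histone of the chromosome 6 cluster, was at 2.02, 7.02 and 4.07 CPM in controls, 2.75, 9.67 and 2.81 CPM at 1 µg/cm2 and 1.31, 3.02 and 1.48 CPM at 30 µg/cm2. It overlapped between groups and was called with the block only (log2 fold change -1.14, SE 0.232, adjusted p = 0.00283, edgeR quasi-likelihood), against -1.15 (SE 0.518, adjusted p = 0.194) without it.

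**Figure D2:**
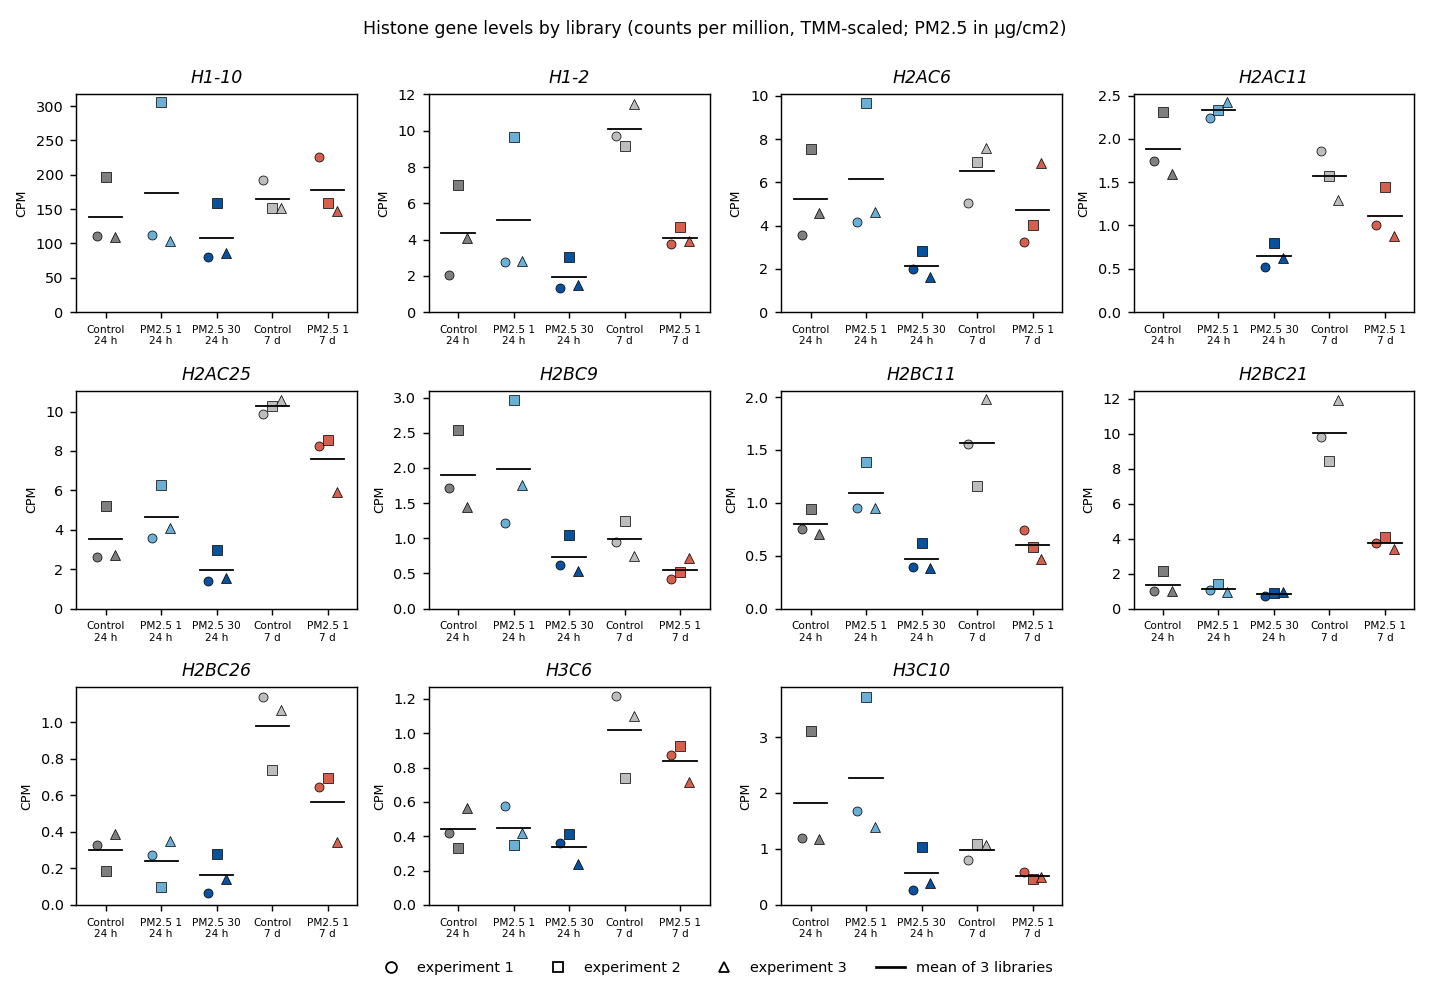
Level in each library (CPM, linear axis from 0) of 11 histone genes by condition, with the experiment as marker shape and the mean of 3 libraries as a bar. In H2AC11 the 3 libraries at 30 µg/cm2 lie below the other 12, in H2BC21 the 7-day controls lie at 8.45 to 11.9 CPM above all others, and experiment 2 (squares) is high at 24 h in several genes.

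Read over all 49 genes, including those with few counts, the direction at 30 µg/cm2 was mostly downward. In a fit that kept every gene with at least 10 counts (25432 genes), 41 of 49 histone genes (83.7%) had a log2 fold change below 0, with a median of -0.77, while 47.1% of all genes were below 0 and their median was 0.03. The median was -1.08 for the 10 H2A genes, all below 0, -0.76 for the 16 H2B genes, -1.0 for the 7 H3 genes, -0.72 for the 9 H4 genes and -0.09 for the 7 H1 genes. In 17 of the 49 genes all 3 treated libraries lay below all controls and in 0 all lay above, against 8.82% and 9.98% of all genes. The summed level of H2A genes was 9.54, 17.3 and 11.4 CPM in the 24-h controls and 4.73, 8.36 and 4.21 CPM at 30 µg/cm2. These groups did not overlap. The H2B genes summed to 8.22, 13.2 and 8.57 CPM in controls and 4.87, 6.62 and 4.93 CPM at 30 µg/cm2, also without overlap. H4 genes summed to 2.5, 3.91 and 2.69 CPM in controls and 1.78, 2.18 and 1.53 CPM at 30 µg/cm2, and H3 genes to 2.71, 5.09 and 3.47 CPM and to 1.02, 2.67 and 1.25 CPM. The H3 groups were separated narrowly, and the H1 genes with a stem-loop overlapped.

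**Figure D3:**
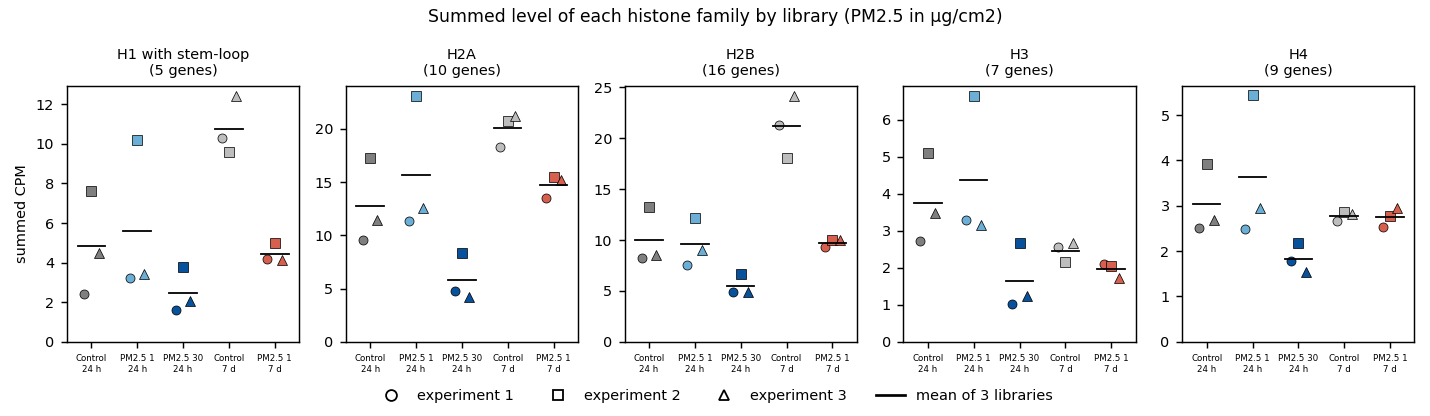
Summed level of each histone family in each library (CPM, linear axis from 0) by condition, with the experiment as marker shape and the mean of 3 libraries as a bar; the H1 sum holds the 5 genes with a stem-loop. H2A and H2B sums at 30 µg/cm2 lie below all 24-h controls, and H2B sums after daily exposure (9.27 to 10 CPM) lie below the 7-day controls (18.1 to 24.2 CPM). The H2B sum holds H2BC21, which was chosen on the 7-day comparison; the sums of the other 15 H2B genes were 5.51 to 6.61 and 9.64 to 12.3 CPM.

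The second comparison addressed a low single dose. At 1 µg/cm2 for 24 h, 0 of 25 histone genes passed the thresholds, with or without the block and without 24-h experiment 2, and 0 did with DESeq2 or at an unadjusted p-value under 0.05. Over all genes 0.0625% passed in this comparison, 0.42% with the block, 2.11% without 24-h experiment 2, 0.222% with DESeq2 and 3.03% at the unadjusted p-value. In 2 histone genes all libraries at 1 µg/cm2 lay above all controls (H2AC13 and H2BC11) and in 2 below (H2BC3 and H2BC18), against 2.88% and 2.32% of all genes. The log2 fold changes ran from -0.35 in H2BC4 (SE 0.526) to 1.20 in H1-3 (SE 0.922), and 16 of all 49 genes were below 0, with a median of 0.21. H2AC25 was at 1.36, 1.21 and 1.51 times the control of the same experiment and H2BC11 at 1.26, 1.47 and 1.34 times. Both stood above control in 3 of 3 experiments, with log2 fold changes of 0.41 (SE 0.324) and 0.45 (SE 0.309) that did not pass.

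Between the doses the difference was larger than against control for some genes. Comparing 30 with 1 µg/cm2 at 24 h, 6 of 25 histone genes fell and 0 rose, against 4.22% and 3.62% of all genes. These were H2AC6, H2AC11, H2AC25, H2BC9, H2BC11 and H3C10, and the comparison shares its 30 µg/cm2 libraries with the one against control. H2AC11 fell 3.58-fold (log2 fold change -1.84, SE 0.273, edgeR quasi-likelihood, Benjamini-Hochberg adjusted p = 0.000996), H3C10 3.92-fold (-1.97, SE 0.536, adjusted p = 0.0326) and H2AC6 2.83-fold (-1.5, SE 0.400, adjusted p = 0.0298). H2BC11, an H2B gene, was at 0.753, 0.942 and 0.709 CPM in controls, 0.952, 1.39 and 0.948 CPM at 1 µg/cm2 and 0.394, 0.624 and 0.383 CPM at 30 µg/cm2. It fell 2.30-fold between the doses (log2 fold change -1.20, SE 0.324, adjusted p = 0.0317), and neither dose differed from control past the thresholds. With the block 8 genes fell between the doses, these 6 with H1-2 and H3C8, against 8.58% of all genes, and without 24-h experiment 2 the 8 were these 6 with H1-2 and H4C16, against 9.97%. In 14 of the 49 genes all libraries at 30 µg/cm2 lay below all at 1 µg/cm2 and in 0 above, against 8.46% and 9.35% of all genes. With the 6 compared libraries alone, 1 gene was called, as was the case without library 2 at 1 µg/cm2 or library 1 or 3 at 30 µg/cm2, and 3 were called without library 3 at 1 µg/cm2.

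**Figure D4:**
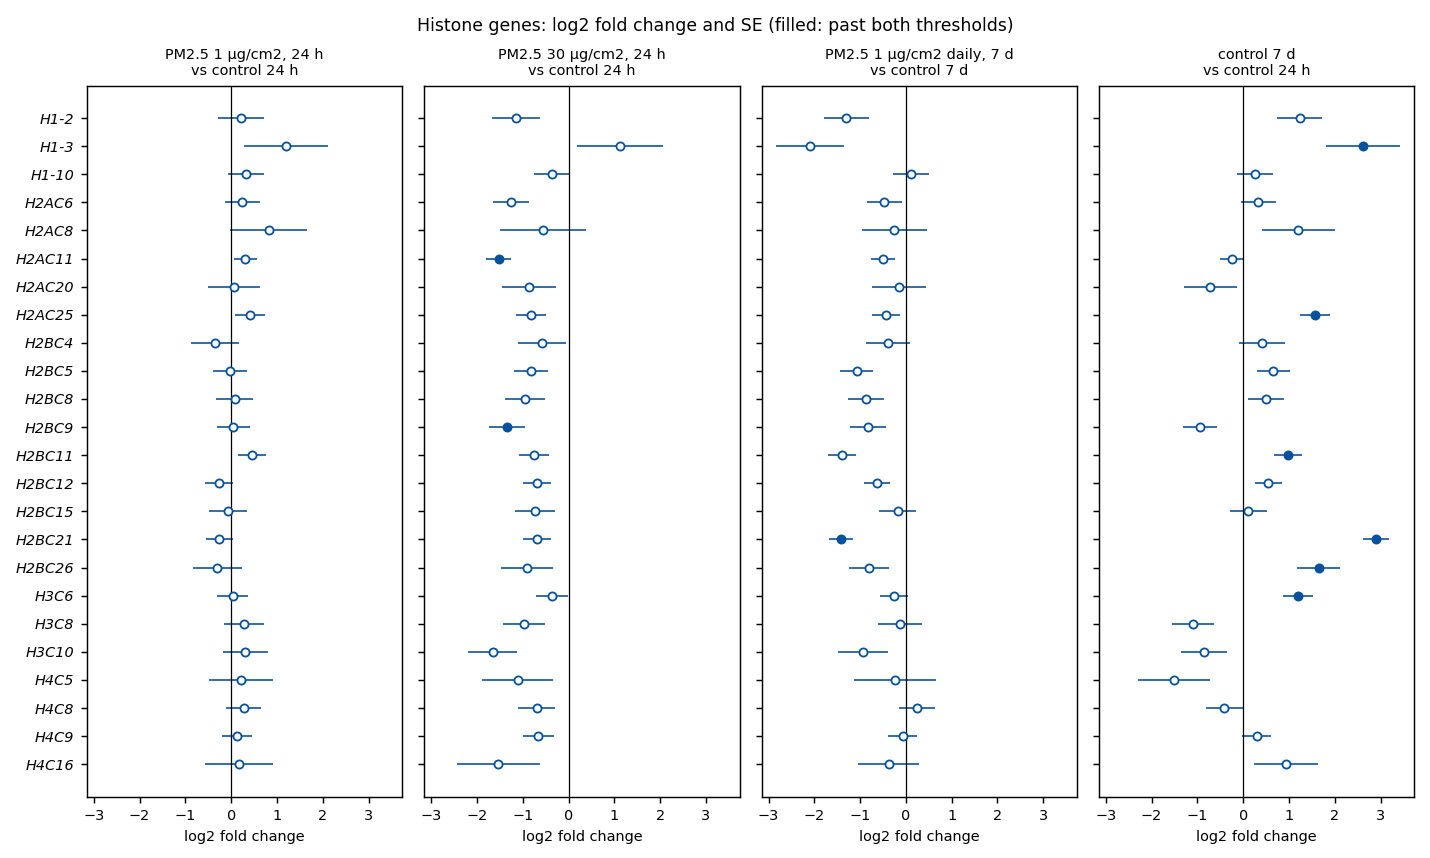
Log2 fold change of 24 of the tested histone genes in 4 comparisons (horizontal axis), with bars of 1 SE and filled points for genes past both thresholds in the fit without a block. No point is filled for 1 µg/cm2 at 24 h, H2AC11 and H2BC9 are filled at 30 µg/cm2, and so are 6 of the genes plotted between the controls of both protocols. H2BC21 was chosen on the daily exposure, so its filled point there is a description.

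The third question was what repeated low exposure did. H2BC21 (GRCh38 chr1:149884459-149886652, minus strand) encodes an H2B protein and is known for a polyadenylated transcript beside the stem-loop form. It was at 9.81, 8.45 and 11.9 CPM in the 7-day controls and 3.76, 4.10 and 3.43 CPM after daily exposure, from 258, 263 and 379 against 116, 142 and 110 counts. The groups did not overlap, and the exposed level was 0.383, 0.485 and 0.289 times the control of the same experiment. This was a fold change of 2.67 downward (log2 -1.42, SE 0.266) and -1.40 (SE 0.191) with the block. H2BC21 was chosen for this comparison and is listed among the genes of the study's daily exposure, so these values are a description and no test is given. When 1 library of the comparison was left out at a time, the log2 fold change lay between -1.53 and -1.28.

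Of the other 24 histone genes tested, 0 passed in this comparison without the block, where 0.125% of all genes passed downward and 0.102% upward. At an unadjusted p-value under 0.05, 6 of these 24 were lower and 0 higher, against 5.64% and 6.3% of all genes, and DESeq2 called 1 lower and 0 higher, against 0.961% and 0.684%. With the block H1-2, H2BC11 and H3C10 fell, against 2.79% of all genes, and without 24-h experiment 2 H1-3 and H2BC5 fell as well, against 3.40%. The libraries of 24-h experiment 2 are not part of this comparison. The log2 fold change of H2BC5 was -1.07 with them and -1.06 without, while the spread, estimated over all conditions, changed with them. H1-3 had 5, 3 and 2 counts after daily exposure. H1-2 was at 9.69, 9.16 and 11.5 CPM in the 7-day controls and 3.73, 4.68 and 3.90 CPM after daily exposure. The groups did not overlap, and the difference of -1.30 on the log2 scale had an SE of 0.494 without the block (adjusted p = 0.309) and 0.198 with it (adjusted p = 0.00384, edgeR quasi-likelihood). H2BC11 was at 1.56, 1.16 and 1.98 CPM in controls and 0.745, 0.578 and 0.468 CPM after daily exposure. Its log2 fold change was -1.39 (SE 0.305, adjusted p = 0.0913) and with the block -1.37 (SE 0.268, adjusted p = 0.00948).

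H3C10 was at 0.798, 1.09 and 1.07 CPM in the 7-day controls and 0.583, 0.462 and 0.499 CPM after daily exposure, and passed with the block (-0.94, SE 0.270, adjusted p = 0.0413, edgeR quasi-likelihood). H2BC5, an H2B gene with a described polyadenylated transcript, was at 3.84, 2.06 and 3.51 CPM in controls and 1.17, 1.70 and 1.59 CPM after exposure. These groups did not overlap, and at 24 h the gene was at 1.38, 3.30 and 1.35 CPM in controls, 1.36, 2.23 and 2.25 CPM at 1 µg/cm2 and 1.18, 0.936 and 1.25 CPM at 30 µg/cm2. H2BC12 was at 1.90, 1.99 and 2.20 CPM in the 7-day controls and 1.07, 1.33 and 1.53 CPM after exposure, also without overlap (log2 fold change -0.63, SE 0.289). Its 24-h levels were 0.993, 1.51 and 1.67 CPM in controls, 0.816, 1.54 and 1.12 CPM at 1 µg/cm2 and 0.822, 1.11 and 0.623 CPM at 30 µg/cm2. H2BC4 overlapped between groups in all 3 exposures, at 0.421, 0.565 and 0.425 CPM in 24-h controls, 0.204, 0.694 and 0.246 CPM at 1 µg/cm2, 0.164, 0.520 and 0.239 CPM at 30 µg/cm2, 0.456, 0.739 and 0.659 CPM in 7-day controls and 0.421, 0.318 and 0.686 CPM after daily exposure.

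H1-10 was at 192, 152 and 151 CPM in the 7-day controls and 226, 159 and 148 CPM after exposure, which overlapped.

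**Figure D5:**
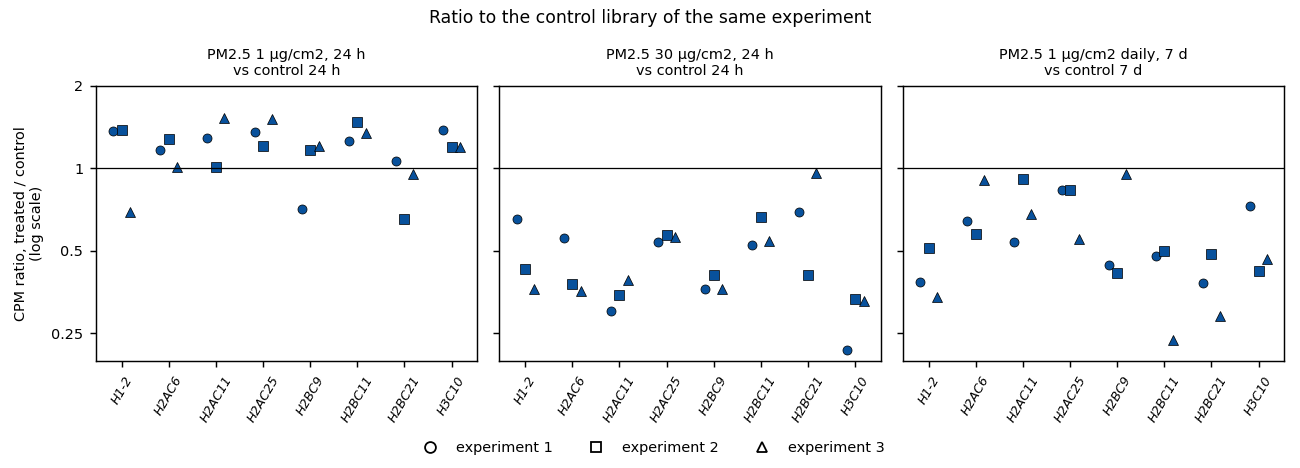
CPM of 8 histone genes as a ratio to the control library of the same experiment (log axis, 1 is no difference) for 3 exposures, with the experiment as marker shape. At 30 µg/cm2 all ratios lie below 1, from 0.218 to 0.965. After daily exposure they run from 0.237 to 0.953, and at 1 µg/cm2 for 24 h from 0.655 to 1.52. All 8 genes were called lower in at least 1 fit, so ratios below 1 follow in part from the choice of genes. Some tested genes not plotted had ratios above 1, such as H3C6 at 30 µg/cm2 (1.26, experiment 2) and H4C8 after daily exposure (1.62, experiment 1).

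Over all 49 genes, 37 (75.5%) lay below 0 after daily exposure, with a median log2 fold change of -0.40, against 49.1% of all genes and a median of 0.00. By family the median was -0.97 for H2B, with 15 of 16 genes below 0, and -0.49 for H2A, with 10 of 10 below 0, while H3 was at -0.12, H4 at -0.09 and H1 at 0.16. In 12 genes all exposed libraries lay below all controls and in 2 all lay above, against 17.0% and 16.3% of all genes. H2B genes summed to 21.3, 18.1 and 24.2 CPM in the 7-day controls and 9.27, 9.99 and 10 CPM after daily exposure. These counts, medians and sums hold H2BC21, which was chosen on this comparison. Without it the 15 other H2B genes summed to 11.5, 9.64 and 12.3 CPM in controls and 5.51, 5.89 and 6.61 CPM after exposure. The 41 genes outside the 8 with described polyadenylated transcripts summed to 24.4, 24.1 and 25.9 CPM in controls and 18.2, 19.2 and 16 CPM after exposure. Those groups did not overlap either. The 10 epithelial genes summed to 3906 to 4791 CPM in the 7-day controls and 2815 to 3153 CPM after daily exposure, and the part of this difference in the histone values was not tested.

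Whether the response to 1 µg/cm2 differed between daily and single exposure was tested as an interaction. Without the block 0 of the 24 histone genes other than H2BC21 passed, as did 0 with edgeR's likelihood ratio test, and 4 were lower at an unadjusted p-value under 0.05, against 3.31% of all genes. Of all genes tested, 0 passed. With the block H1-2 and H2BC11 passed, against 0.682% of all genes in that direction, and their response to daily exposure differed from that to the single one by -1.44 (SE 0.289) and -1.81 (SE 0.385) on the log2 scale (adjusted p = 0.0475 for both, edgeR quasi-likelihood). Without 24-h experiment 2, H1-2, H2AC25, H2BC5, H2BC11 and H3C10 passed downward, against 5.73% of all genes. For H2BC21, where the 7-day contrast chose the gene and no test is given, the difference was -1.15 (SE 0.398). Set against the response to 30 µg/cm2 at 24 h, 0 of these 24 passed without the block (1 higher and 1 lower at an unadjusted p-value under 0.05, against 7.47% and 8.02% of all genes), where 1.82% of all genes did, and H2AC11 passed with it, where 6.79% of all genes passed in its direction. The response of H2AC11 to daily exposure was less downward by 1.02 on the log2 scale (SE 0.340, adjusted p = 0.0498, edgeR quasi-likelihood). Without 24-h experiment 2 H2AC11 did not pass (1.07, adjusted p = 0.0521) and H2AC20 did (1.57, adjusted p = 0.035), where 11% of all genes passed in that direction. The 24-h and 7-day values were measured in separate protocols, so dose, time, plating density and washing cannot be told apart in these differences.

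The fourth comparison, between the unexposed controls of both protocols, showed the widest range of the polyadenylated histone genes. In 7-day against 24-h controls 7 of 25 histone genes passed upward, against 11.1% of all genes, and 0 fell, against 10.8%. The 7 hold H2BC21, for which these values are a description, since the 7-day controls entered the contrast that chose it. At an unadjusted p-value under 0.05, 8 were higher and 2 lower, against 20.2% and 20.1% of all genes, and DESeq2 called 7 higher and 1 lower, against 11.6% and 12.5%. H2BC21 stood at 0.993, 2.12 and 0.992 CPM in the 24-h controls, from 33, 45 and 28 counts, so that the 7-day controls were 7.45-fold higher (log2 fold change 2.90, SE 0.288). The same 7-day control libraries are the reference of the daily exposure above, and the gene stayed low in all exposed 24-h libraries, at 1.05, 1.39 and 0.948 CPM at 1 µg/cm2 and 0.690, 0.867 and 0.958 CPM at 30 µg/cm2. After daily PM2.5, H2BC21 at 3.43 to 4.10 CPM thus lay between the 24-h and the 7-day controls.

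H2AC25 was at 9.88, 10.3 and 10.6 CPM in the 7-day controls and 8.23, 8.58 and 5.90 CPM after daily exposure, and rose 2.95-fold between the controls (log2 fold change 1.56, SE 0.324, adjusted p = 0.00289, edgeR quasi-likelihood). H2BC26, its neighbour on chromosome 1, was at 0.331, 0.188 and 0.390 CPM in the 24-h controls, 0.272, 0.0991 and 0.351 CPM at 1 µg/cm2, 0.0657, 0.277 and 0.144 CPM at 30 µg/cm2, 1.14, 0.739 and 1.07 CPM in the 7-day controls and 0.648, 0.693 and 0.343 CPM after daily exposure. It rose 3.14-fold between the controls (1.65, SE 0.472, adjusted p = 0.0181), from 11, 4 and 11 counts in the 24-h controls. This call was lost in 4 of 6 fits that left out 1 library. H2AC25 and H2BC26, which share a promoter region, were thus both higher in the 7-day controls. Other pairs also had overlapping promoter windows. Of H2BC11 and H2AC11 only H2BC11 rose, while H2AC6 and H2BC4 both had log2 fold changes above 0 without passing. The same held for H2BC8 and H2AC8. The window of H2BC21 overlaps that of H2AC20, and these genes differed in direction. H2BC21 was higher in the 7-day controls, which is a description. H2AC20 had a log2 fold change of -0.72 (SE 0.581) that did not pass, and its groups overlapped.

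H3C6, an H3 gene with a poly(A) signal at the end of its model, was at 0.421, 0.330 and 0.567 CPM in 24-h controls, 0.578, 0.347 and 0.421 CPM at 1 µg/cm2, 0.362, 0.416 and 0.239 CPM at 30 µg/cm2, 1.22, 0.739 and 1.10 CPM in 7-day controls and 0.875, 0.924 and 0.717 CPM after daily exposure. It rose 2.28-fold between the controls (log2 fold change 1.19, SE 0.326, adjusted p = 0.0146, edgeR quasi-likelihood), and H2BC11 rose 1.96-fold (0.97, SE 0.303, adjusted p = 0.0277). With 1 library left out at a time, the call was lost in 3 of 6 fits for H3C6 and in 4 of 6 for H2BC11. H1-3, a linker histone of the chromosome 6 cluster, had 4, 0 and 2 counts in the 24-h controls and 9, 9 and 23 in the 7-day controls, and passed (adjusted p = 0.0277, edgeR quasi-likelihood). Its other libraries held 7, 4 and 2 counts at 1 µg/cm2, 1, 3 and 8 at 30 µg/cm2 and 5, 3 and 2 after daily exposure, so its level in the 24-h controls was near the floor and no fold is given. Leaving out 1 control library at a time gave 3 to 7 calls, with 4 without library 1 of either protocol and 3 without 7-day library 3, and without 24-h experiment 2, 11 histone genes rose and H3C8 fell, against 16.1% and 14.9% of all genes. The protocol and the experiment cannot be told apart here, so no block could be fitted.

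H1-2 was higher in all 7-day control libraries but did not pass (log2 fold change 1.23, SE 0.496, adjusted p = 0.0799, edgeR quasi-likelihood). Without 24-h experiment 2 it did (1.73, adjusted p = 6.82e-06). H2BC9, H3C10 and H2AC11 had log2 fold changes below 0. H2BC9 was at 0.950, 1.25 and 0.753 CPM in the 7-day controls and 0.421, 0.520 and 0.717 CPM after daily exposure, with all 7-day control values below the 24-h controls (-0.94, SE 0.376, adjusted p = 0.0777). H3C10 lay lower likewise (-0.86, SE 0.508), and H2AC11 overlapped (-0.25, SE 0.255). Over all 49 genes 25 lay below 0 and the median was -0.22, while 49.1% of all genes were below 0 and their median was 0.02. The 8 genes with described polyadenylated transcripts (among them H1-10, H1-2, H2AC6, H2BC4, H2BC5, H2BC12 and H2BC21) were all above 0 with a median of 0.60. This is a description, since the 8 hold H2BC21 and were listed with earlier results of these data known. H3 genes had a median of -1.11, with 6 of 7 below 0. In 11 genes all 7-day controls lay above and in 9 all lay below the 24-h controls, against 22.0% and 18.9% of all genes.

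The H4 genes, whose product forms the core of the nucleosome with H3, were called in none of the 5 comparisons between conditions in the fit over all libraries, with or without the block. Without 24-h experiment 2, H4C16 was called lower at 30 µg/cm2 against control (adjusted p = 0.034, edgeR quasi-likelihood) and against 1 µg/cm2 (adjusted p = 0.0209). Over experiments 1, 2 and 3 it had 11, 2 and 3 counts in controls, 12, 1 and 4 at 1 µg/cm2 and 1, 4 and 0 at 30 µg/cm2. These counts were near the floor and experiment 2 went the other way, so no fold is given for those 2 calls. H4C9 had the highest level per kilobase among the H4 genes, with 0.718 to 2.53 CPM over the 15 libraries, and 4 of the 9 had enough counts to test. Their log2 fold changes ran from -1.53 (H4C16, SE 0.903) to -0.66 (H4C9, SE 0.337) at 30 µg/cm2 for 24 h and from -0.38 (H4C16, SE 0.658) to 0.25 (H4C8, SE 0.394) after daily exposure. H4C14 shared all of its 50-base windows with another histone gene of the table, so its 32 counts are uncertain. Of the germline histone genes, H1-8, H2AC1 and H2BC1 had 0 counts, which allows up to 0.149 CPM in the smallest TMM-adjusted library, and H1-6 and H1-7 had 1 and 9.

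H1-10-AS1 was at 3.22, 9.65 and 2.44 CPM in the 24-h controls, 3.67, 9.86 and 3.41 CPM at 1 µg/cm2 and 0.592, 2.57 and 0.527 CPM at 30 µg/cm2. It was at 2.51, 2.60 and 2.13 CPM in the 7-day controls and 2.01, 1.94 and 1.68 CPM after daily exposure. It fell 4.49-fold between the 24-h doses (log2 fold change -2.17, SE 0.632, edgeR quasi-likelihood, adjusted p = 0.0444) and, with the block, relative to control (-2.10, SE 0.195, adjusted p = 1.05e-05). The first of these calls was lost in 4 of 6 fits that left out 1 library. It overlaps H1-10 on the other strand, and since the strand setting of the counting is not given in the sources used here, its reads and those of H1-10, which had 63959 counts against 1286, cannot be told apart.

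Histone variants and the genes that make and handle histone mRNA and protein were read from lists. Of 9 variant genes, CENPA, the histone H3 of the centromere, fell at 30 µg/cm2 from 62.0 ± 10.6 to 33.4 ± 17.0 CPM (SD, n = 3, log2 fold change -0.89, SE 0.261, edgeR quasi-likelihood, adjusted p = 0.0454). With the block H2AZ2, H2AJ and H3-3A fell as well. H2AZ1, the H2A.Z variant, was at 839 ± 142 CPM in 24-h controls and 746 ± 358 CPM at 30 µg/cm2, and was lower in the 7-day controls, at 454 ± 20.3 CPM (-0.89, SE 0.283, adjusted p = 0.0309). Of the variants 0 passed after daily exposure, with 0 at an unadjusted p-value under 0.05 and 0 with DESeq2.

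Among 15 genes of histone mRNA synthesis and 3′ processing, ZNF473, a zinc finger protein of the U7 machinery, rose at 30 µg/cm2 from 32.3 ± 0.551 to 49.9 ± 5.13 CPM (log2 fold change 0.63, SE 0.107, adjusted p = 0.00204, edgeR quasi-likelihood), and 0 fell. SLBP was at 181 ± 19.1 CPM in 24-h controls and 134 ± 21.8 CPM at 30 µg/cm2, and at 195 ± 9.64 and 242 ± 17.8 CPM in the 7-day control and exposed libraries. Its log2 fold changes were -0.43 (SE 0.146) and 0.31 (SE 0.146), neither past the thresholds. NPAT, which activates histone transcription in S phase, was at 53.6 ± 10.3 and 54.3 ± 13.4 CPM in 24-h controls and at 30 µg/cm2. Between the controls LSM11, a U7 snRNP protein, and E2F1 rose and the cleavage factors CPSF3 and CSTF2 fell in the 7-day protocol. Of 9 histone chaperone genes, 0 passed in any exposure in the fit without a block, with 4 lower at 30 µg/cm2 and 3 higher after daily exposure at an unadjusted p-value under 0.05 and 0 in either by DESeq2. With the block ASF1B, a chaperone of new H3-H4 dimers, fell at 30 µg/cm2.

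Of 21 S-phase and proliferation genes, CCNA2 (cyclin A2) and MKI67 fell at 30 µg/cm2, by 0.78 (SE 0.138) and 0.94 (SE 0.236) on the log2 scale, and 0 rose. Their summed level was 5387 to 5605 CPM in the 24-h controls, 5175 to 5392 CPM at 1 µg/cm2, 3847 to 4890.4 CPM at 30 µg/cm2, 4415 to 4708 CPM in the 7-day controls and 4266 to 4740.2 CPM after daily exposure. The sum was lower at 30 µg/cm2 and overlapped between the 7-day groups, where 0 of the 21 passed. Single genes differed in direction between the 7-day groups. MKI67 was at 753 ± 26.1 CPM in the 7-day controls and 535 ± 42.3 CPM after daily exposure. PCNA was at 472 ± 22.3 and 634 ± 29.3 CPM. At an unadjusted p-value under 0.05, 2 were higher and 1 lower there, and DESeq2 called 1 higher, while with the block CCNE1 (cyclin E1) rose. CCNA2 was at 209 ± 20.5 and 121 ± 19.0 CPM in 24-h controls and at 30 µg/cm2, and at 167 ± 4.29 and 130.5 ± 2.82 CPM in the 7-day control and exposed libraries. The part of S-phase cells and of the lower epithelial markers in the histone values was not tested.

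RNAs without a poly(A) tail were also read from a list. Their counts cannot show how much of such RNA came through selection, because reads shared between similar genes can be lost in counting. How well short RNAs were recovered before selection is not known either. Of 22 such genes 11 had 0 counts and 4 could be tested, and their summed level was 3.06 to 5.63 CPM in 24-h controls, 3.83 to 6.02 CPM at 30 µg/cm2, 4.79 to 8.39 CPM in 7-day controls and 5.93 to 6.61 CPM after daily exposure. The exposed and control ranges overlapped in both protocols. RN7SL2, an RNA of the signal recognition particle, rose in the 7-day controls from 1.58 ± 1.05 to 4.57 ± 1.78 CPM (log2 fold change 1.5, SE 0.464, adjusted p = 0.0265, edgeR quasi-likelihood).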

How the data were processed

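RNA was poly(A)-selected and sequenced as single 50-base reads from 15 BEAS-2B libraries. The authors deposited counts of reads per gene, made with STAR and featureCounts, with gene positions on GRCh38 as in the study's methods, although the submitters' processing notes name hg19. The annotation and the strand and multi-mapping settings are not given in the sources used here. Symbols were matched from Ensembl IDs for 57437 of 58219 genes. The symbols H2AC18, H2AC19, H3C2 and H3C3 were not analysed here. The member rule, gene lists and tests were chosen with earlier results of these data known.

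Counts were fitted with edgeR 4.0.16 in R 4.3.3, using TMM scaling, filterByExpr (17599 genes kept) and the legacy quasi-likelihood test, in 1 fit of all 15 libraries without covariates. A gene was called where the p-value, adjusted by Benjamini-Hochberg over these genes, was under 0.05 and the log2 difference 0.6 or more in either direction. CPM used TMM-scaled library sizes, and n = 3 per condition throughout. The p-values use the spread between libraries of the same condition, pooled over all conditions in the fit and moderated across genes. With the block, differences between experiments are taken out of this spread. Replicate numbers come from the sample titles. Equal numbers within a protocol were taken as the same experiment and used to pair the samples, which neither the titles nor the methods state. Deviations from the condition means correlated between libraries of the same number at 0.201 to 0.721 (24 h, 9 pairs) and 0.121 to 0.181 (7 days, 3 pairs). Between libraries of different numbers they correlated at -0.683 to 0.453 (24 h, 18 pairs) and -0.127 to -0.0341 (7 days, 6 pairs). The ranges of same and different numbers thus overlapped at 24 h. Levels are given per library for genes called in any comparison, the 8 genes with described polyadenylated transcripts and the 5 highest per kilobase. A gene that met the rule is not reported here by itself and is left out of plots and summed levels, but counts and medians over genes hold it. Alternatives were DESeq2 1.42.0, RLE scaling, the likelihood ratio test, the current quasi-likelihood mode, other count filters, the 6 compared libraries alone, the experiment block and left-out libraries. Floors of 3 counts cover counting error only. The scripts (Python 3.11.15, pandas 2.3.3, numpy 2.4.6) were tested on simulated data.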

Additional observations from a re-analysis of the deposited data

Results flagged for a closer look

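H1-2 and H2BC11 responded to 1 µg/cm2 of PM2.5 differently in the 7-day and the 24-h protocol by the test of the difference itself, with the experiment as a block. The difference of log2 fold changes was -1.44 (SE 0.289) for H1-2 and -1.81 (SE 0.385) for H2BC11, with an adjusted p = 0.0475 for both by edgeR's quasi-likelihood test. Without the block the differences were -1.52 (SE 0.700, adjusted p = 0.706) and -1.83 (SE 0.435, adjusted p = 0.351). H1-2 was at 0.385, 0.511 and 0.339 times the control of the same experiment after daily exposure and at 1.37, 1.38 and 0.690 times after the single one. H2BC11 was at 0.478, 0.499 and 0.237 times and at 1.26, 1.47 and 1.34 times, so that all 3 experiments of each protocol lay on opposite sides of 1.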

How the results depend on the processing

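Counts of called histone genes differed between settings. Here and above, the share over all genes is not given for some fits. These are the fits with other filters, the likelihood ratio test, only the 6 compared libraries, or single libraries left out. Their counts of called genes can therefore not be set against all genes. For 30 µg/cm2 against control the count of 2 became 4 with DESeq2, the likelihood ratio test or no filter, 0 with only the 6 compared libraries, 6 with the experiment block, 10 without 24-h experiment 2 and 1 to 5 when single libraries were left out. For daily exposure the count of 1, H2BC21, which was chosen on this comparison, became 2 with DESeq2 or the likelihood ratio test, 0 with the filter at 10 counts or any 1 library left out, 6 with only the 6 compared libraries or without 24-h experiment 2 and 4 with the block. The libraries of 24-h experiment 2 are not part of the daily comparison. Between the doses the count of 6 became 1 with only the 6 compared libraries and 1 to 8 with single libraries left out. Between the controls the count of 7 became 12 without 24-h experiment 2 and 3 to 7 with single libraries left out. The count of 0 for 1 µg/cm2 stayed at 0 throughout. The daily against single response at 1 µg/cm2 gave 2 genes with the block and 6, H2BC21 included, without 24-h experiment 2. In these fits 0.682% and 5.73% of all genes passed downward. Against 30 µg/cm2 it gave H2AC11 with the block. Without 24-h experiment 2 it gave H2AC20 and H2BC21, and H2AC11 was lost. Of all genes 6.79% and 11% passed upward there, the direction of H2AC11 and H2AC20. Summed over the genes with a stem-loop, the level after daily exposure was 36.5 CPM by total counted reads in place of 33.7 CPM. Without the 8 genes with described polyadenylated transcripts the sums of the 5 conditions were 19.5, 23.0, 9.98, 24.8 and 17.8 CPM. Calls that the block changed are given with each result. Genes of low counts are limited by depth.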
